A study of Mus musculus with 20 samples.

Results

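Marco and 9 other genes that macrophages use to bind and clear particles, dying cells and modified lipoproteins were followed in mouse peripheral blood 24 h after whole-body irradiation. The group holds the scavenger receptors Marco, Msr1, Cd163, Cd36 and Stab1, the mannose receptor Mrc1, the secreted protein Cd5l, the receptor kinases Axl and Mertk, and the adhesion molecule Vcam1. Every probe that the array files name for one of these 10 genes was taken, which gave 12 of the 39429 non-control probes, and 10 of the 31093 genes that the array names. The genes were chosen by their radiation values in these same arrays: Marco and Cd5l served in the study's predictor of exposure built on Il10-/- mice, and the others were grouped with them when results of the arrays were already known. The differences between irradiated and unirradiated mice are therefore given as a description, without p-values.

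The study asked whether an inflammatory background changes the blood gene expression response to radiation. Male littermates aged 8 to 10 weeks were either WT C57BL/6 or Il10-/- (B6.129P2-Il10tm1Cgn/J), a line that lacks the anti-inflammatory cytokine interleukin 10 and is used as a model of inflammatory bowel disease. Each genotype received 7 Gy of X-rays or a sham exposure (0 Gy). Blood was drawn by cardiac puncture into a stabilising solution, and globin RNA was depleted in all 4 groups. Each group was measured on 5 single-colour arrays, 20 in all. The labels number the arrays of a group as replicates and do not name the animals. On the 10 WT arrays the Il10 probe never stood well above background, at −1.54 ± 0.45 (SD, n = 5) at 0 Gy, and was well above it on all 10 arrays labelled Il10-/-, at 2.75 ± 0.31 (SD, n = 5) at 0 Gy. That is the opposite of a lost transcript, and where this probe lies relative to the disrupted part of the gene was not established, so this probe does not check the genotypes, which are taken from the labels. Between the labelled genotypes at 0 Gy, 6 of 10 mature neutrophil genes were called higher in Il10-/- mice, with a median difference of 1.89 beside 0.36 over all probes. Of all probes tested, 0.852% were called there in either direction. The labels themselves were not tested.

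All values are log2 signals relative to the median of the 39429 non-control probes of the same array, so that 0 marks the array's median probe. On the weaker arrays that median probe was itself not well above background, so 0 is not the same level on every array. Levels of different probes cannot be set against each other, because each probe has its own affinity. A probe was tested if it passed a filter on background and a filter on change, and a difference was called if its p from limma was below 0.001 with a false discovery rate under 10% over all 18655 probes tested. Among the 12 probes, 9 passed, for 8 of the 10 genes. Both Vcam1 probes and the Cd163 probe failed the background filter and are given as levels only.

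Some arrays stood apart. WT 0 Gy replicate 5 was the weakest, with 29.9% of its spots well above background against 34.6% to 57.8% on the other 19. Scaling to a reference array, in place of the array median, shifted its values by 1.12, against −0.21 to 0.30 on the other 19. Such a shift makes rises in WT, and excesses of unirradiated Il10-/- over WT mice, smaller than reported. In each group, replicates 1 and 2 resembled each other most: over probes, their difference had a robust SD of 0.23 to 0.34, against 0.41 to 1.40 for other pairs. Whether they share material was not tested. When they were averaged and counted as 1 array, the same member genes were called in both genotypes. Each of the 5 slides held 1 array of every group, so radiation differences could also be read within a slide.

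Scavenger receptors are surface proteins with broad specificity for negatively charged ligands such as oxidised lipoproteins, bacterial surfaces and the membranes of dying cells. They are known mainly from macrophages resident in spleen, liver, lung and lymph node, and from monocytes to a lesser degree. Axl and Mertk bind phosphatidylserine on dying cells through bridging proteins, Gas6 for both and also Pros1 for Mertk. Cd5l is a secreted member of the scavenger receptor cysteine-rich family made by tissue macrophages. In whole blood RNA, a change in the number of expressing cells and a change in RNA per cell cannot be told apart.

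The sequence before the transcription start is shown for the pair of genes with the largest differences, Marco and Cd5l, and for Cd36, which moved the other way. RefSeq promoters on GRCm38.p6 were matched for 8 of the 10 genes and for neither Msr1 nor Vcam1. Each line gives the 250 bases before the start, 5′ to 3′ on the gene's strand, and capitals mark matches to GAGGAAG on either strand, the core bound by PU.1, a transcription factor of macrophages.
Marco, chr1:120505025-120505274, minus strand: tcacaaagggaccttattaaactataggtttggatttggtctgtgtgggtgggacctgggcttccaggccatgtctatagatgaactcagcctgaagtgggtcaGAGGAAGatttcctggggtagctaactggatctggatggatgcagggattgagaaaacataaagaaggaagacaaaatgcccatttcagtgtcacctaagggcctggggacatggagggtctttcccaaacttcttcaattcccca
Cd5l, chr3:87357631-87357880, plus strand: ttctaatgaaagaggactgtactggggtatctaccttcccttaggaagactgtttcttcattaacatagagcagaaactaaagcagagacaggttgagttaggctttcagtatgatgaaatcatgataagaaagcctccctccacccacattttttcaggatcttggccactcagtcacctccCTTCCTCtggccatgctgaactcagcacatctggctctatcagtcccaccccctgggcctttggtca
Cd36, chr5:17835897-17836146, minus strand: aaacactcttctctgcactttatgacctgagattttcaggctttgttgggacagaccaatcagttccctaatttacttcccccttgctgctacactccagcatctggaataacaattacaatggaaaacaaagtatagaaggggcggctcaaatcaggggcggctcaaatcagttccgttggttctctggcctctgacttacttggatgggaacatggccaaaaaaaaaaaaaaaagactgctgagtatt

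The core occurred in the 250 bases of Marco, Cd5l, Axl and Mrc1, 4 of the 8 promoters, against 10.6% of all 32851 promoters of the same length. Counted back from the start, it lay at −146 to −140 in Marco and at −67 to −61 on the opposite strand in Cd5l. Searches on both strands for TGANTCA (AP-1), TTGCNNAA (C/EBP), TGCTGAC (part of the MAF element) and TATAAA (the TATA box) found no match in these 8 windows, against 6.75%, 9.56%, 3.81% and 12.4% of all promoters. These searched motifs do not overlap each other in the printed sequences, and a match is only a match of letters.

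Marco, a class A scavenger receptor of marginal zone and other resident macrophages, was higher after 7 Gy in both genotypes, by more than any other member. Its probe lies at chr1:122371170-122371230 on mm9, the build the array files name. In WT mice at 0 Gy its 5 arrays read 5.25, 5.01, 5.06, 3.01 and 0.76, in replicate order, and the last was not well above background. After 7 Gy they read 9.04, 9.47, 9.04, 8.88 and 10.29. The Il10-/- arrays read 4.76, 4.66, 5.16, 4.63 and 5.28 at 0 Gy, and 8.56, 8.47, 8.61, 9.24 and 9.11 after 7 Gy. Thus every irradiated array lay above every unirradiated one in each genotype, while the genotypes overlapped at either dose.

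The group means of Marco were 9.34 ± 0.57 in WT after 7 Gy, 8.80 ± 0.35 in Il10-/- after 7 Gy, 4.90 ± 0.30 in Il10-/- at 0 Gy and 3.82 ± 1.94 in WT at 0 Gy (SD, n = 5 each), in this order. The neighbours within a dose did not differ beyond their spread. The difference was 5.53 (SE 0.71) in WT, or 46.1-fold, and 3.90 (SE 0.24) in Il10-/-, or 14.9-fold, and both were called. Without the weak WT 0 Gy replicate 5 the WT difference was 4.76 and was still called. Within single slides it ran from 3.79 to 9.53 in WT and from 3.44 to 4.62 in Il10-/-.

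Cd5l, which regulates lipid metabolism in macrophages and circulates bound to IgM, followed Marco. WT arrays at 0 Gy read 6.55, 6.52, 6.85, 5.65 and 2.23, and after 7 Gy they read 9.72, 9.83, 9.65, 9.81 and 11.05. Il10-/- arrays read 6.48, 6.59, 7.10, 7.25 and 6.46 at 0 Gy, and 9.23, 9.34, 9.67, 8.99 and 9.65 after 7 Gy. Again the doses did not overlap in either genotype, and replicate 5 was the lowest WT array at 0 Gy and the highest at 7 Gy. The difference was 4.45 (SE 0.71) in WT, 21.9-fold, and 2.60 (SE 0.25) in Il10-/-, 6.06-fold, and both were called. Without WT 0 Gy replicate 5 the WT difference was 3.62 and was called.

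**Figure D1:**
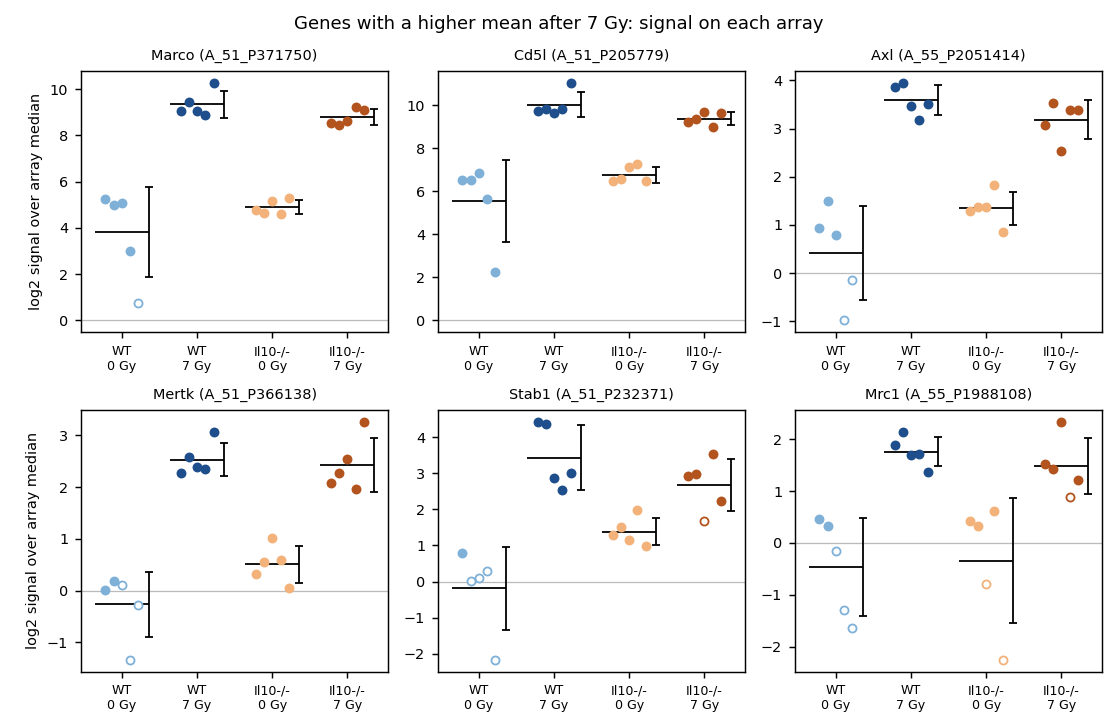
Log2 signal over the array median (vertical axis) of 6 genes on each of the 20 arrays, by group (horizontal axis), with filled points well above background, open points not, lines for group means and bars for SD (n = 5). Marco sits between 8.47 and 10.29 on all 10 irradiated arrays and at or below 5.28 on all 10 unirradiated ones.

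The receptor kinases Axl and Mertk were also higher after 7 Gy in both genotypes. Axl arrays of WT mice read 0.94, 1.498, 0.79, −0.98 and −0.14 at 0 Gy and 3.87, 3.95, 3.46, 3.18 and 3.51 after 7 Gy, while those of Il10-/- mice read 1.29, 1.38, 1.36, 1.82 and 0.85 at 0 Gy and 3.07, 3.53, 2.53, 3.39 and 3.39 after 7 Gy. The lowest irradiated array thus lay above the highest unirradiated one in each genotype. The differences of 3.17 (SE 0.46) in WT and 1.84 (SE 0.26) in Il10-/- were called.

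Mertk, the kinase most tied to the uptake of dying cells by macrophages, read 0.01, 0.19, 0.10, −1.34 and −0.28 in WT mice at 0 Gy and 2.27, 2.58, 2.39, 2.34 and 3.06 after 7 Gy. For Il10-/- mice the values were 0.33, 0.56, 1.02, 0.60 and 0.05 at 0 Gy and 2.08, 2.28, 2.54, 1.96 and 3.26 after 7 Gy. No array of one dose reached the other dose. The differences of 2.79 (SE 0.39) in WT and 1.91 (SE 0.29) in Il10-/- were called.

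Msr1, the class A receptor also known as SR-A, had a pair of probes. One of them targets the following 60 bases, shown because its call in Il10-/- mice differed from that of the other.
Msr1 (A_52_P127130): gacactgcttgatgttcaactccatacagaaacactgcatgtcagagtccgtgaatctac

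On this probe WT arrays read 0.86, 0.79, 1.13, −0.76 and −0.59 at 0 Gy and 2.41, 3.04, 2.90, 2.52 and 3.63 after 7 Gy, and Il10-/- arrays read 1.19, 1.64, 0.82, 1.29 and 0.69 at 0 Gy and 2.07, 2.58, 2.53, 2.04 and 2.85 after 7 Gy. Both differences were called, at 2.61 (SE 0.46) in WT and 1.29 (SE 0.26) in Il10-/-. The brighter probe, A_52_P607128, stands for the gene in the counts. It read 1.75, 1.51, 1.60, 0.51 and −2.29 in WT at 0 Gy against 3.34, 3.50, 3.41, 3.23 and 4.02 after 7 Gy, a called difference of 2.88 (SE 0.63) that was not called without WT 0 Gy replicate 4 (2.86) or without WT 7 Gy replicate 5 (2.75). Without the weak WT 0 Gy replicate 5 it was 2.16 and was called. In the other genotype it read 2.33, 2.46, 2.10, 2.33 and 1.54 against 2.87, 2.68, 3.28, 2.87 and 3.99. There the doses did not overlap, but the difference of 0.99 (SE 0.29) was not called.

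Stab1, a clearance receptor of macrophages and sinusoidal endothelium, rose in WT mice. WT arrays read 0.79, 0.03, 0.09, 0.29 and −2.17 at 0 Gy, of which only the first was well above background, and 4.43, 4.36, 2.86, 2.52 and 3.01 after 7 Gy. Il10-/- arrays read 1.29, 1.51, 1.15, 1.97 and 1.00 at 0 Gy and 2.92, 2.97, 1.68, 3.53 and 2.24 after 7 Gy, and here the doses overlapped. The difference was 3.63 (SE 0.56) in WT and 1.28 (SE 0.34) in Il10-/-, where it was not called. It was called in Il10-/- mice without replicate 3 at 7 Gy, at 1.53.

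Mrc1, the mannose receptor of alternatively activated macrophages and sinusoidal endothelium, was called in WT only. WT arrays read 0.45, 0.32, −0.16, −1.30 and −1.64 at 0 Gy and 1.90, 2.13, 1.69, 1.71 and 1.37 after 7 Gy, and Il10-/- arrays read 0.42, 0.33, −0.80, 0.61 and −2.26 at 0 Gy and 1.51, 1.44, 2.34, 0.89 and 1.22 after 7 Gy. The doses did not overlap in either genotype. The differences were 2.22 (SE 0.45) in WT and 1.82 (SE 0.51) in Il10-/-, the latter not called. For neither Stab1 nor Mrc1 was a difference between the genotypes' responses called, as given below.

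Cd36, a class B receptor for fatty acids and oxidised lipoproteins that platelets, monocytes and fat cells also carry, went the other way. WT arrays read 6.60, 6.92, 6.86, 8.27 and 5.40 at 0 Gy and 5.23, 4.72, 5.07, 5.61 and 4.74 after 7 Gy. Il10-/- arrays read 7.76, 7.85, 5.99, 6.04 and 7.60 at 0 Gy and 4.46, 4.29, 4.66, 4.56 and 4.95 after 7 Gy. The doses overlapped in WT through replicate 5 at 0 Gy and replicate 4 at 7 Gy, and were apart in Il10-/- mice. The signal fell by 2.47 (SE 0.40) in Il10-/- mice, a called 5.52-fold difference. In WT the difference of −1.74 (SE 0.47) was not called, but it was called at −2.09 without the weak WT 0 Gy replicate 5, and also under subtraction of the 75th percentile (−1.96), scaling to a reference array (−1.82), quantile normalization (−2.09), the deposited series table (−1.82), a fit of all 4 groups and a false discovery rate below 5% alone. With the hepatocyte and heart muscle covariates described below it changed sign, to 0.35, and was not called.

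Vcam1, an adhesion molecule of endothelium and of macrophages that retain red and dying cells, had one dim and one dark probe, and the Cd163 probe, for the macrophage receptor of haemoglobin bound to haptoglobin, was dark throughout. The 60 bases of the Cd163 probe and of the dark Vcam1 probe are shown because nothing was read from them.
Vcam1 (A_52_P520495): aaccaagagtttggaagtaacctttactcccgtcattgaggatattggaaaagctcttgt
Cd163 (A_55_P2289819): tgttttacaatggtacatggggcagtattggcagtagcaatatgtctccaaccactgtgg

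The other Vcam1 probe, A_51_P210956, was well above background on 3 of 5 WT and 2 of 5 Il10-/- arrays after 7 Gy and on 0 of 10 unirradiated arrays, whose means were −1.69 ± 0.69 in WT and −1.94 ± 0.50 in Il10-/- mice (SD, n = 5). It read 1.19, 1.40, 0.86, −1.31 and −0.92 in irradiated WT and 0.55, 0.76, 0.04, −0.43 and −1.06 in irradiated Il10-/- mice. Against the lowest signal that counted as well above background, or the probe's own signal where higher, the irradiated mean was 1.26-fold higher in WT and 1.56-fold higher in Il10-/- mice. Neither is a strict lower bound, because the irradiated means include arrays not well above background. On replicate 4 of WT the irradiated array (−1.31) lay below the unirradiated one (−0.70). Probe A_52_P520495 was well above background on 0 of 20 arrays, with group means from −2.37 to −1.25. Cd163 was likewise above it on 0 of 20 arrays, with group means from −2.84 to −1.69, so no level can be given for it and the Vcam1 values rest on 1 of its probes.

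**Figure D2:**
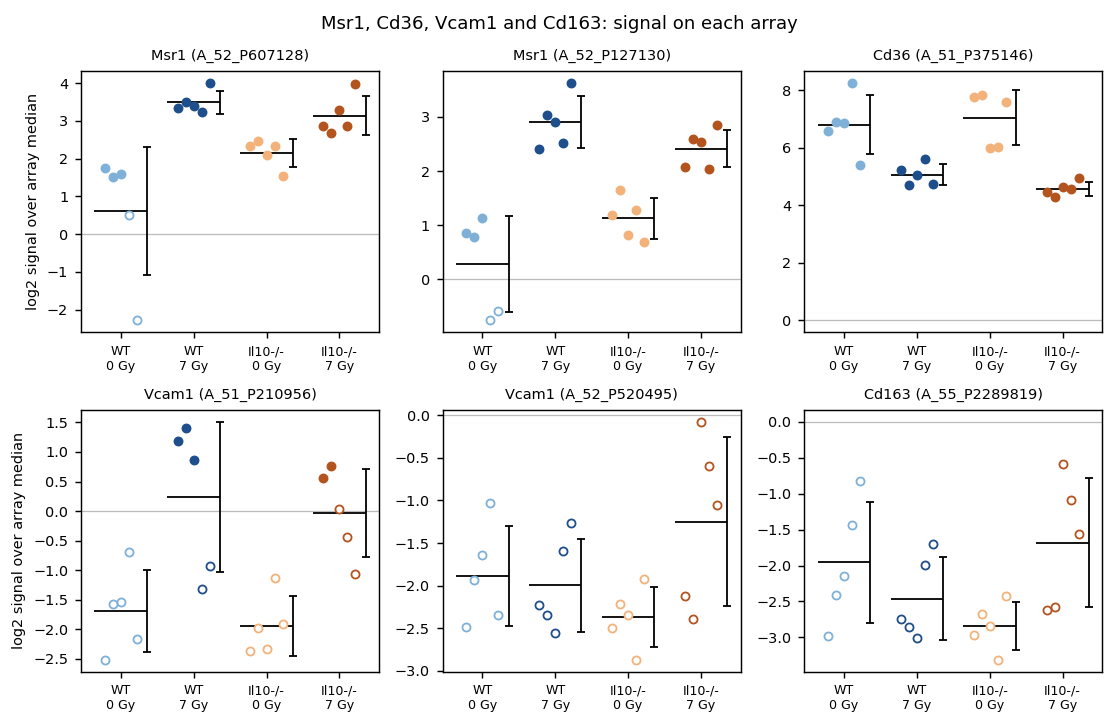
Log2 signal over the array median (vertical axis) of both Msr1 probes, Cd36, both Vcam1 probes and Cd163 on each of the 20 arrays, by group (horizontal axis), with filled points well above background, open points not, lines for means and bars for SD (n = 5). Cd36 lies between 5.40 and 8.27 at 0 Gy and between 4.29 and 5.61 after 7 Gy, and no point is filled for Cd163 or for Vcam1 probe A_52_P520495.

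Counted over genes, 7 of the 8 tested members rose and 0 fell in WT mice, where 4.47% of all probes rose and 2.31% fell. In Il10-/- mice 4 rose (Marco, Cd5l, Axl and Mertk) and 1 fell (Cd36), where 3.29% of probes rose and 5.84% fell. The irradiated arrays lay wholly above the unirradiated ones for 7 members in WT, as for 11.8% of probes, and for 6 members in Il10-/-, as for 6.12%. They lay wholly below for 0 members in WT, as for 4.27% of probes, and for 1 member in Il10-/-, as for 10.9%. The median difference of the 8 members was 3.03 in WT and 1.83 in Il10-/-, beside −0.02 and −0.10 over all probes tested. Because the genes were chosen by this contrast and had to pass filters that their irradiated arrays could satisfy, these counts describe the choice.

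**Figure D3:**
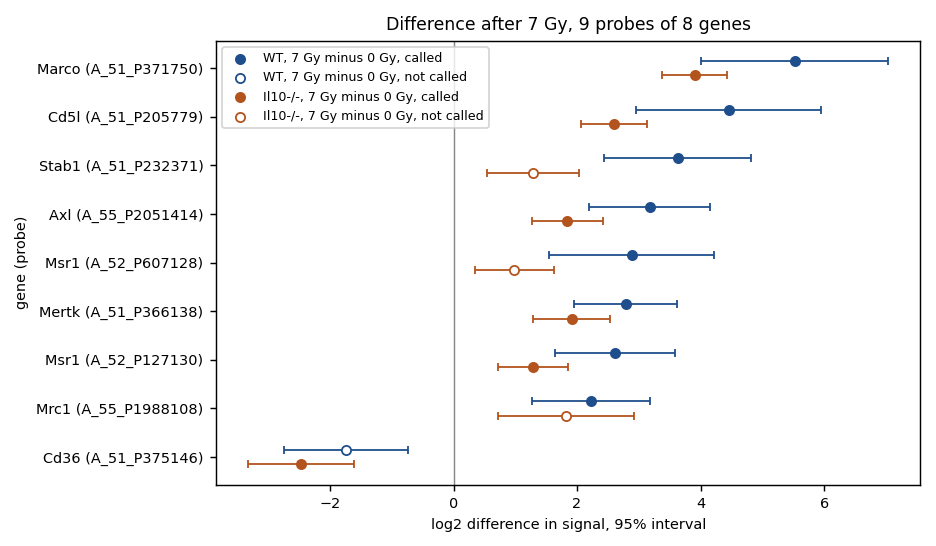
Log2 difference in signal between irradiated and unirradiated mice (horizontal axis) for the 9 tested probes (vertical axis), in WT and in Il10-/- mice, with 95% intervals from limma, filled where called and open where not. Marco is farthest to the right in both genotypes (5.53 and 3.90), and only Cd36 lies to the left of 0.

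Background correction and the marker genes of other tissues bear on these calls. With normexp background correction, 2 members, Marco (5.47) and Cd5l (4.71), were called in WT, among 268 of 11465 probes. In Il10-/- mice limma then called 0 members of 7 tested and 0 of 11465 probes, with Marco at 3.28. Adding the mean signals of hepatocyte and heart muscle genes as covariates left 0 members called in WT, where 5 of 18655 probes were called and Marco was at 4.55 (SE 1.79). In Il10-/- it left 6 members called, where 615 probes were called and Marco was at 4.05. The additional one was Msr1, at 1.97. With a false discovery rate below 5% as the only criterion, all 8 were called in Il10-/- mice, where 4054 probes were called.

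The genotypes were compared at each dose, which is not the contrast that chose the genes but uses the same arrays. At 0 Gy, limma called none of the 8 members between Il10-/- and WT mice, against 0.852% of all probes, and 2 had an unadjusted p below 0.05, as did 2999 of 18655 probes. That member count was 5 with all 4 groups in 1 fit and 0 of 7 tested with normexp. Marco was 1.08 higher in Il10-/- (95% interval −0.31 to 2.47, adjusted p = 0.37), and 0.31 higher without WT 0 Gy replicate 5. Stab1 was 1.58 higher (0.56 to 2.59, adjusted p = 0.19), and 1.08 higher without the same array, but 4 of the 5 WT arrays were not well above background for it. Msr1 (A_52_P607128) was 1.53 higher (0.26 to 2.81, adjusted p = 0.26), and 0.81 higher without that array. On its other probe, A_52_P127130, it was 0.84 higher (−0.08 to 1.75). Either probe was well above background on only 3 of 5 WT arrays. All 8 members lay above 0, with a median of 1.00 beside 0.36 over all probes, but Cd36 (0.24) and Mrc1 (0.13) fell below 0 without WT 0 Gy replicate 5.

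After 7 Gy none of the 8 members was called between the genotypes by limma, against 0.0107% of all probes, and 0 had an unadjusted p below 0.05, as against 2064 of 18655 probes. That member count was 2 with scaling to the reference array and in the series table, and 3 of 7 tested with normexp. All 8 were lower in Il10-/- mice on average, with a median of −0.45 beside 0.08 over all probes. Marco differed by −0.55 (95% interval −1.21 to 0.12, adjusted p = 0.51) and Cd5l by −0.64 (−1.29 to 0.02, adjusted p = 0.46). Mertk differed by −0.10 (−0.73 to 0.52, adjusted p = 0.91), and by 0.03 without WT 7 Gy replicate 5.

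The difference between the radiation responses, Il10-/- minus WT, was tested as an interaction over all 20 arrays. The genes were chosen by radiation responses in these arrays, so the p-values and signs given here are not independent of that choice. The interaction was called by limma for 0 of the 8 members, against 0% of all 18655 probes, with 4 members and 1334 probes at an unadjusted p below 0.05. Stab1 had the largest value, −2.34 (95% interval −3.78 to −0.91, adjusted p = 0.68), but only 1 of 5 WT arrays at 0 Gy was well above background for it. Msr1 (A_52_P607128) was next at −1.90 (−3.46 to −0.33, adjusted p = 0.68), then Cd5l at −1.85 (−3.57 to −0.14, adjusted p = 0.68) and Marco at −1.62 (−3.35 to 0.11, adjusted p = 0.68). Without WT 0 Gy replicate 5 these became −1.85, −1.17, −1.02 and −0.86. All 8 values were below 0, with a median of −1.48 beside −0.20 over all probes. For Cd36 (−0.73), whose signal fell after irradiation, a value below 0 is a larger fall in Il10-/- mice. For the others it is a smaller rise. A response that was called in WT mice alone, as for Stab1, Msr1 (A_52_P607128) and Mrc1, was therefore not shown to differ between genotypes.

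The 5 genes whose profile was most like that of Marco, by Pearson's r over the 20 arrays among 15807 other genes, were Rab11fip5 (0.98), Engase (0.98), Cd5l (0.98), Plxdc2 (0.98) and Bst2 (0.98). The values rest largely on the dose, which all arrays of a group share. After group means were removed, r was 0.88, 0.85, 0.90, 0.90 and 0.81 in the same order. These weigh most on WT 0 Gy, where Marco had an SD of 1.94 against 0.30 to 0.57 in the other groups. They were not computed without the weak WT 0 Gy replicate 5. Among the other members Axl came closest, at rank 93 (r = 0.94), and Mertk, Msr1, Stab1 and Mrc1 ranked 135, 256, 329 and 740. Cd36 stood near the other end at rank 15293, with r = −0.71. With group means removed the order differed: r was 0.89 for Msr1, 0.55 for Axl and Stab1, 0.40 for Mertk and 0.34 for Mrc1. For Cd36 it was then 0.21.

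Genes of the same processes and of other cell types were read from lists, whose tested genes are counted here for WT and then for Il10-/- mice. Over all probes tested, 4.47% rose and 2.31% fell in WT, and 3.29% rose and 5.84% fell in Il10-/- mice. Among other scavenger receptors, 1 of 11 rose in WT and 2 of 11 in Il10-/-, with medians of 1.27 and 0.80. Scarf2 rose in both, by 3.63 (SE 0.57) and 2.10 (SE 0.27), and Cxcl16, a chemokine that also binds oxidised lipoprotein, rose by 1.17 (SE 0.27) in Il10-/-. Lrp1 (2.05 in WT), Scarb2 (1.70) and Cd68 (1.54) were not called.

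Of the genes for apoptotic cell uptake, 6 of 21 rose and none fell in each genotype, with medians of 1.34 and 0.82. Gas6, the ligand of Axl and Mertk, rose by 4.39 (SE 0.55) in WT and by 3.05 (SE 0.30) in Il10-/-, the largest rise of its list in each. The other 5, in both genotypes, were C1qa, C1qb and C1qc of the first complement component, the phosphatidylserine receptor Timd4 and the integrin subunit Itgb5. Pros1, the other bridging ligand of Mertk, differed by 1.34 (SE 0.40) and 0.94 (SE 0.50), and Tyro3, the third kinase of the Axl family, by 0.43 (SE 0.47) and 0.21 (SE 0.39), and neither was called.

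On the liver X receptor and PPAR-gamma list, 5 of 15 rose in WT and none in Il10-/-, with medians of 0.86 and −0.01. They included Apoe (4.18, SE 0.64, the largest), which liver also makes, Nr1d1, Nr1h3, and Fabp4, which is on the adipocyte list too. Since no probe was called in the test of the genotypes' difference in response, this count was not shown to differ between them. On the haemoglobin and haem clearance list, Hpx, a plasma protein made by liver, rose by 9.39 (SE 1.30) in WT and Slc48a1, a haem transporter, fell by 2.08 (SE 0.43), while in Il10-/- mice Blvrb fell by 2.01 (SE 0.29), Slc48a1 fell by 1.64 (SE 0.36) and none rose, of 11 tested.

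Tissue macrophage markers moved with the members. Of 11 tested, 7 rose and none fell in each genotype: Adgre1, an adhesion receptor of resident macrophages, Vsig4, Timd4, Folr2 and the C1q genes. Timd4 and the C1q genes are also counted on the apoptotic cell uptake list, so the counts of these lists are not separate. Folr2 rose most, by 4.48 (SE 0.46) in WT and 3.83 (SE 0.61) in Il10-/-. Clec4f, a marker of liver macrophages, differed by 3.61 (SE 0.98) in WT and 1.28 (SE 1.07) in Il10-/- and was not called, and Spic, Slc40a1 and Adgre4 were not called either. The mean of the list spanned 1.30 to 3.31 at 0 Gy and 4.84 to 5.76 after 7 Gy in WT, and 2.78 to 3.81 and 4.81 to 5.13 in Il10-/-. Blood monocyte markers did not share this, with 1 of 10 rising (Cd14, 2.79) and 1 falling (Cx3cr1, −2.29) in WT, and with 3 falling in Il10-/-, Cx3cr1 the most (−3.14). None of 10 neutrophil markers was called in either.

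Markers of tissues outside the blood varied widely between arrays. Of 17 hepatocyte genes, 13 rose in WT (Serpina1a the most, 9.54) and none in Il10-/-, where the median was 1.74. Their mean ran from 0.17 to 1.55 in WT at 0 Gy and from 2.32 to 11.0 after 7 Gy, so it moved with the dose there. In the Il10-/- groups it reached from 1.71 up to 9.31 at 0 Gy and from 1.03 up to 9.22 after 7 Gy. Between 5 and 13 of 18 hepatocyte genes were well above background in WT at 0 Gy and 15 to 18 after 7 Gy. The heart muscle mean spanned 0.52 to 2.95 at 0 Gy and 0.87 to 7.46 after 7 Gy in WT, and 0.60 to 3.70 and 2.18 to 7.21 in Il10-/- mice, with none of 8 genes called in WT and 5 rising (Myh6 the most, 7.08) and 1 falling (Myl4, −1.30) in Il10-/-.

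Marco and the hepatocyte mean were also set side by side array by array. In Il10-/- mice at 0 Gy, replicates 3 and 4 had hepatocyte means of 8.07 and 9.31 with Marco at 5.16 and 4.63, whereas Il10-/- 7 Gy replicate 3 had a hepatocyte mean of 1.03 with Marco at 8.61. WT 7 Gy replicate 4 had a hepatocyte mean of 2.32 and a heart muscle mean of 1.01 with Marco at 8.88. WT 7 Gy replicate 5, the array with the highest Marco signal, had a hepatocyte mean of 5.22 and a heart muscle mean of 0.87. WT 7 Gy replicates 1, 2 and 3 had hepatocyte means of 11.0, 11.0 and 8.13 with Marco at 9.04, 9.47 and 9.04. For Il10-/- 7 Gy replicates 1, 2 and 4 these means were 9.21, 9.22 and 7.97 with Marco at 8.56, 8.47 and 9.24. In WT mice the hepatocyte means of the 2 doses did not overlap, which limits how far the covariate and the dose can be told apart there.

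**Figure D4:**
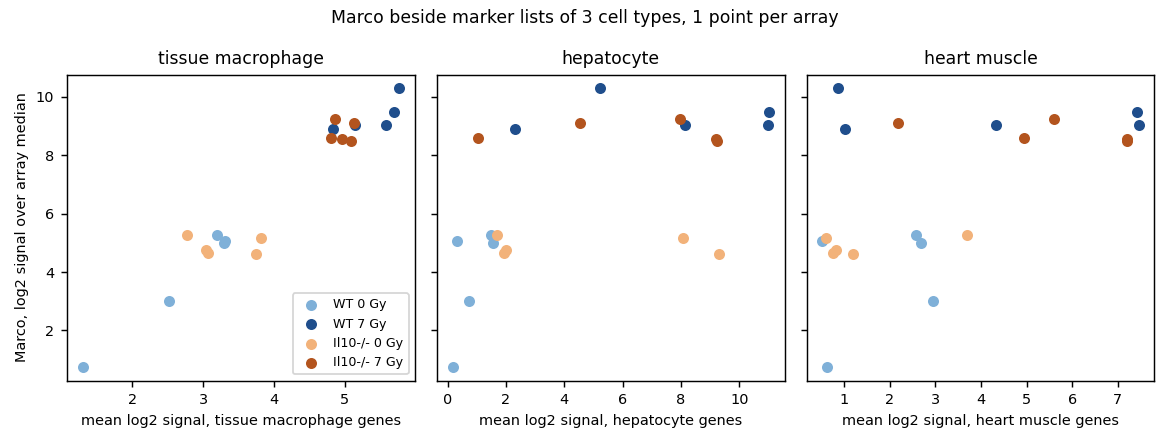
Marco log2 signal over the array median (vertical axis) against the mean log2 signal of tissue macrophage, hepatocyte and heart muscle genes (horizontal axes), with 1 point per array coloured by group. Irradiated arrays lie at 8.47 or above for Marco across hepatocyte means from 1.03 to 11.0, and the tissue macrophage mean separates the doses as Marco does. The fibroblast and adipocyte means, not drawn, also separate the doses in both genotypes.

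Of the remaining lists, 3 of 4 fibroblast genes rose in WT (Col3a1 the most, 4.44) and 4 of 4 in Il10-/- (Col1a1 the most, 2.81), 2 of 6 endothelial genes rose in WT (Egfl7, 3.45, and Lyve1, 2.60) and none in Il10-/-, and 2 of 7 adipocyte genes (Cfd, 3.01, and Fabp4, 2.70) and 1 of 7 (Cfd, 3.37) rose. The fibroblast mean spanned 0.12 to 2.07 at 0 Gy and 3.07 to 5.94 after 7 Gy in WT, and 1.14 to 2.36 and 3.52 to 4.82 in Il10-/-. Its median differences were 3.67 and 2.60, beside 2.99 and 1.71 for tissue macrophage genes. The adipocyte mean spanned −0.08 to 0.96 and 1.19 to 1.57 in WT, and 0.42 to 1.13 and 1.23 to 2.25 in Il10-/-. A mean that separates the doses was thus not particular to macrophage markers. No platelet gene of 8 was called in either genotype. Of 7 tested genes each, 6 B cell genes fell in both genotypes, Vpreb3 the most (−5.24 and −5.77), 3 and 4 erythroid genes fell, and 1 T cell gene, Cd8a, fell in each (−3.03 and −2.02). The part of any of these cell types in the members' values was not tested.

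**Figure D5:**
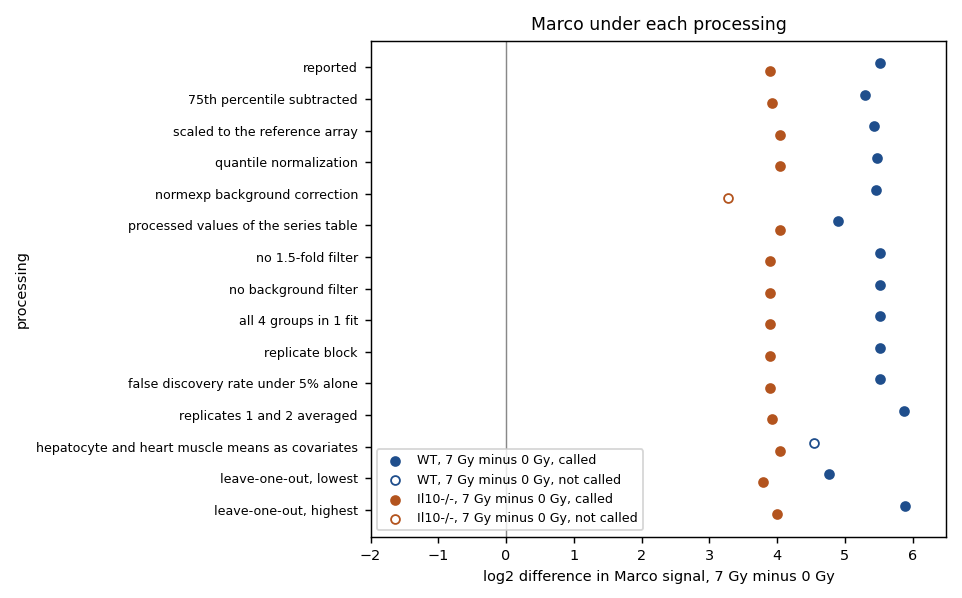
Log2 difference in Marco signal between irradiated and unirradiated mice (horizontal axis) under the reported processing and each alternative (vertical axis), in WT and in Il10-/- mice, filled where called. Values run from 4.55 to 5.88 in WT and from 3.28 to 4.05 in Il10-/-, and the call is missing with the covariates in WT and with normexp in Il10-/-.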

How the data were processed

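Whole blood was measured on Agilent one-colour mouse arrays, 5 per group. The sample titles gave each array's group and replicate number. For each array the authors deposited the spot intensity given by Feature Extraction, already background-subtracted; the methods name version 10.7 and the file headers 12.0.2.2. A deposited series table of log2 values served as an alternative. The member genes and gene lists were chosen with earlier results of these data known.

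Here, in R 4.3.3, outlier spots were dropped, spots of a probe averaged, log2 taken and each array's median subtracted. Probes were left out if at least 25% of arrays marked them as outlying or dim, or if under 20% of arrays lay 1.5-fold from the probe's median, which left 18655 of 39429. Each comparison was fitted on its 10 arrays, and the interaction on all 20, with limma 3.58.1 (lmFit and eBayes), and adjusted by Benjamini-Hochberg over all probes. A gene's value is its tested probe with the highest mean. The number of arrays limits the precision, and p-values measure the spread between arrays. The fits were tested on simulated data. The rule for naming genes took all members, the 5 genes most like Marco, and each list's called genes with the largest rise and fall; others named were chosen after their values were seen. Some genes of the lists are not reported here by name.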

Additional observations from a re-analysis of the deposited data

Results flagged for a closer look

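Among 48 combinations of a member probe and a group, 3 held an array far from the other 4, and chance alone gives about 1 in 20. All 3 lay on replicate 5. Cd5l at 2.23 in WT 0 Gy replicate 5 was far below the next array at 5.65. Cd5l at 11.05 in WT 7 Gy replicate 5 was far above the next at 9.83. Stab1 at −2.17 in WT 0 Gy replicate 5 was far below the next at 0.03 and was not well above background there.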

How the results depend on the processing

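The number of member genes called after irradiation was 7 in WT and 5 in Il10-/- mice as reported. It moved by over 1.5 times under normexp background correction (2 and 0), under the hepatocyte and heart muscle covariates in WT (0), and under a false discovery rate below 5% alone in Il10-/- (8). Leaving out single arrays gave 6 to 8 called genes in WT and 5 to 6 in Il10-/-, and 0 in the genotype comparisons and the interaction. No other alternative moved these counts by that much, and with the replicate number as a block, which marks a shared slide, they were 8 and 6, and members at an unadjusted p below 0.05 between unirradiated genotypes numbered 4 in place of 2. Deviations of arrays on a slide correlated by a mean of −0.13 to 0.41 between groups and exceeded 0.1 on all 5 slides for no pair of groups. Reversals touched values that were not called. Between unirradiated genotypes, Cd36 became −0.11 with the 75th percentile, −0.044 with the reference array, −0.23 with quantile normalization and −0.043 in the series table, and Mrc1 became −0.22, −0.16 and −0.091 with the 75th percentile, the reference array and the series table and −0.34 with the covariates. Leaving out single arrays gave −0.11 (without WT 0 Gy replicate 5) to 0.60 for Cd36 and −0.17 (without the same array) to 0.60 for Mrc1. With the covariates, Cd36 in irradiated WT mice became 0.35 and Mertk between irradiated genotypes 0.075, the latter running from −0.31 to 0.031 (without WT 7 Gy replicate 5) as single arrays were left out. The causes were not tested. Weak signals limit Mrc1, Stab1 and Mertk at 0 Gy in WT, where 1 or 2 of 5 arrays were well above background.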
